A study of Mus musculus with 2 samples.

Results

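Integrin and laminin genes were compared in whole mouse uterus on gestational day 4, with Mettl14 f/f as one genotype and Mettl14 d/d as the other. The members were all genes whose symbols name an integrin alpha subunit, an integrin beta subunit or a laminin chain, which gave 37 of the 55363 genes in the files. Of these, 26 are integrins (18 alpha and 8 beta subunits) and 11 are laminin chains. The mice of both groups were pregnant females aged 6 to 8 weeks when mated with fertile males, with the plug day counted as day 1. Mettl14, whose alleles are floxed in f/f and deleted in d/d by the usual notation, encodes a subunit of the methyltransferase that puts N6-methyladenosine on RNA together with Mettl3. The sources used here name no Cre driver, strain or number of animals per library, so the cells that carry the deletion are not specified. The labels give the cell type as mixed, and the f/f library serves as the control.

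Laminins are cross-shaped secreted trimers of an alpha, a beta and a gamma chain that form the sheet of every basement membrane, the layer on which epithelial, endothelial, muscle and nerve cells rest. Integrins are cell surface receptors made of an alpha and a beta subunit that grip laminins, collagens, fibronectin or other cells and connect them to the actin or keratin cytoskeleton. On this day the mouse uterus prepares for the attachment of the embryo to the luminal epithelium, beneath which lie a basement membrane and the stroma that will become the decidua. In the human endometrium the integrin of alpha v and beta 3 is a known marker of the receptive phase.

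With 1 library per genotype, values carry no replicate error, no test was possible, and every difference is one between these libraries. Levels are FPKM, the fragments of a gene scaled to its length and to the mapped fragments of the library. Ratios are log2 of d/d over f/f on FPKM + 1, a scale on which differences of genes near 1 FPKM or less look smaller, and fold values are ratios of FPKM itself. A gene is called higher or lower where it differed by 2-fold or more on that scale (a log2 ratio of 1), provided that it reached 1 FPKM in one of the libraries or in both. Mettl14 was 13.6 FPKM in f/f against 3.21 in d/d, in the direction of the labels. Where a pair of levels is given for a gene, the f/f value comes first. Depth, inferred from the spacing of low FPKM, was about 19700000 fragments for f/f against 23050000 for d/d.

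Of the 37 genes, 35 passed the filter. In d/d, 11 of these were higher (31.4%), 1 was lower (2.86%) and 23 were neither. Among all 16263 genes that passed, 10.2% were higher and 8.28% were lower. Of the 35, 5 reached 1 FPKM in one library alone, namely Itgb6, Lamb3, Lama1 and Itga11 in d/d and Itgae in f/f, so that their passing was tied to their difference. Among the 30 members at 1 FPKM or more in both libraries, 8 were higher (26.7%) and 1 was lower, against 7.93% higher and 5.78% lower of 14370 genes with that stricter filter, which was chosen after seeing the data. The median log2 ratio was 0.16 over the integrins and -0.26 over the laminins, with -0.01 over all genes that passed. These medians hide a wide spread among the members, which ran from -1.30 for Lama4 to 3.46 for Lamb3. By a 1.5-fold rule 15 members were higher and 6 lower, against 18.8% and 17.8% of all genes that passed. Against the quartiles of all genes that passed, -0.41 and 0.41, 15 members lay above, 9 below and 11 within. The members below the filter were Itga10, with 0.703 FPKM in f/f against 0.991 in d/d, and Itgad, with 0.446 in f/f but listed at 0 for d/d.

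**Figure D1:**
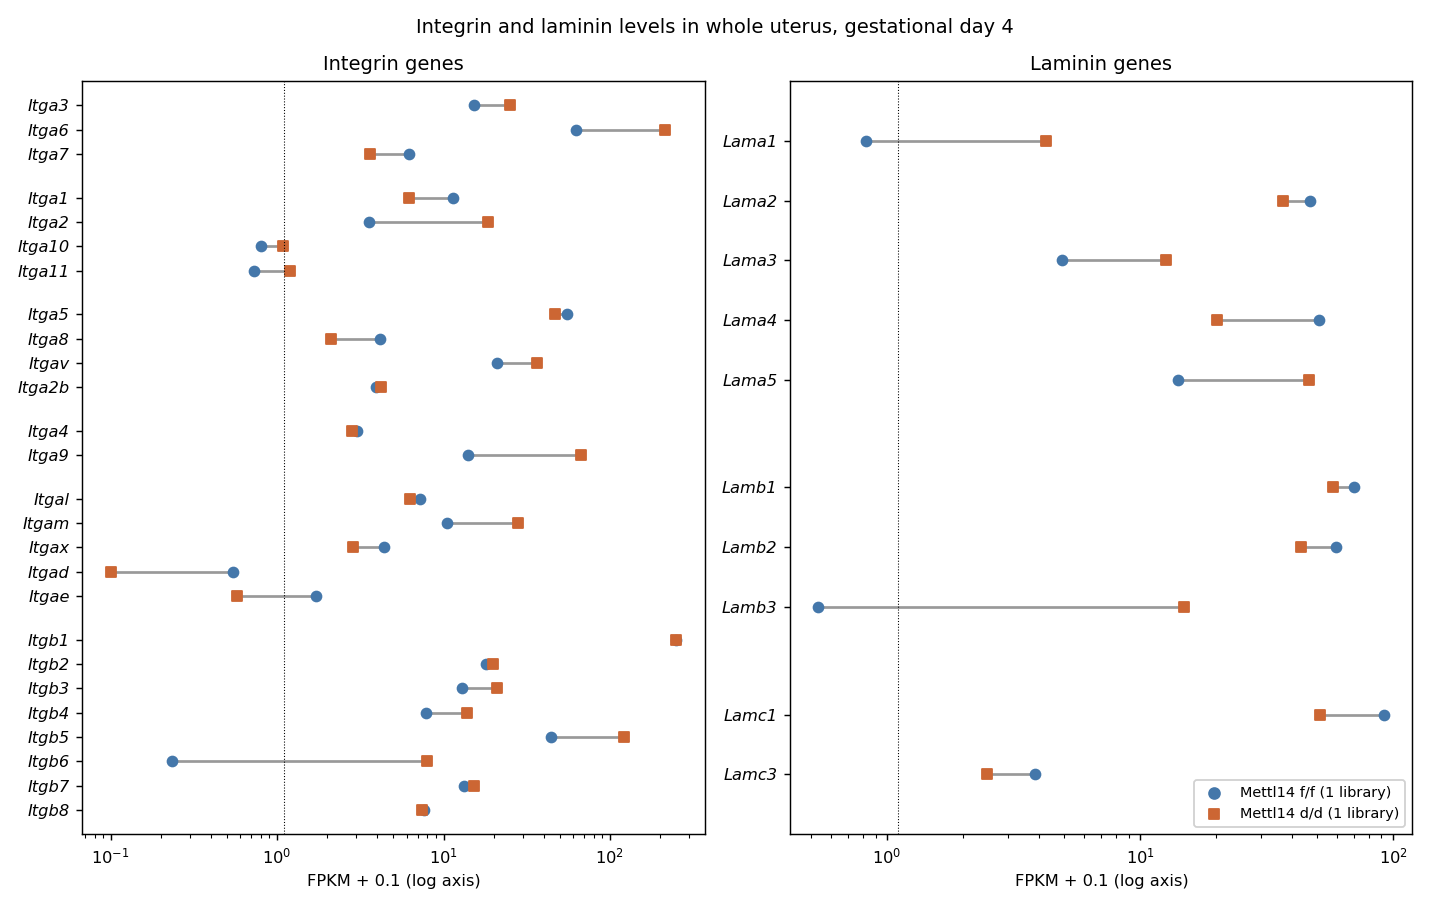
Levels of the 26 integrin genes (left) and 10 laminin genes (right) in the f/f library (blue circles) and the d/d library (orange squares), as FPKM + 0.1 on a log axis, with a line joining the values of each gene and a dotted line at 1 FPKM. The longest lines belong to Itgb6, at 0.133 and 7.81 FPKM, and Lamb3, at 0.435 and 14.8 FPKM, while the points of Itgb1 coincide at 250.3 and 248.0 FPKM.

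The regions just before the transcription starts are shown for some of the members called higher in d/d. RefSeq windows (build GRCm38.p6) existed for 23 of the 37 genes and for 7 of the 12 that were called, and the 250 bases before the start are given for a laminin beta chain, a laminin alpha chain and a pair of integrin beta subunits. Capitals mark every match on either strand to 5 motifs. The first was TGANTCA, the site of AP-1 factors. The second was AGGTCA, a unit bound by the estrogen receptor and other nuclear receptors. The third was AGAACA, a unit bound by progesterone and glucocorticoid receptors. The fourth was GGGCGG, the GC box, and the fifth TATAAA, the TATA box. No match overlapped another in the windows shown. Lamb3 (chr1:193301744-193301993, plus strand), Itgb6 (chr2:60722604-60722853, minus strand), Lama5 (chr2:180225860-180226109, minus strand) and Itgb5 (chr16:33829415-33829664, plus strand) read 5′ to 3′ as follows.
Lamb3: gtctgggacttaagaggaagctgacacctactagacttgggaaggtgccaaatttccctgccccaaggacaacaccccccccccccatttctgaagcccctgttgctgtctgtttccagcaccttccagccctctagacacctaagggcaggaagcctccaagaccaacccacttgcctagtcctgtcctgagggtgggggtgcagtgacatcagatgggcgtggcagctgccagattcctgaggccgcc
Itgb6: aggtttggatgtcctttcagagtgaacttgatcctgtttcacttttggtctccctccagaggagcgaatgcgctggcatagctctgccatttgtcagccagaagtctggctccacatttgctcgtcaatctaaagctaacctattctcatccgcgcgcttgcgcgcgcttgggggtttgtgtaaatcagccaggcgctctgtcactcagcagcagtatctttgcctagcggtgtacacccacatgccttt
Lama5: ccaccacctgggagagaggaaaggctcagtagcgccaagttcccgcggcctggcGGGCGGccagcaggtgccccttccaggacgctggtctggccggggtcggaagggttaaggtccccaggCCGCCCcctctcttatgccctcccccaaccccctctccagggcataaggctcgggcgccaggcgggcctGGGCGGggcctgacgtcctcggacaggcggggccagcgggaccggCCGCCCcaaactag
Itgb5: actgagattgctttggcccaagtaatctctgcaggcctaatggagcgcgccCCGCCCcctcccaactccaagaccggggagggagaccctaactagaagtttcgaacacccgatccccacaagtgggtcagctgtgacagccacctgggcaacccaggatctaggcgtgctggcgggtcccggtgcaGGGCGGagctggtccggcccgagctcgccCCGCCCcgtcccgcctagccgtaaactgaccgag

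The Lama5 window is 72.4% G and C and holds 4 GC boxes, and the Itgb5 window is 65.2% G and C and holds 3. No searched motif matched in the Lamb3 window shown, at 58.8% G and C, or in the Itgb6 window shown, at 52% G and C. Another RefSeq window exists for Lamb3, at 61.2% G and C, and for Itgb6, at 38%, both also without a match. Over all 32851 windows of the table, 32.7% held a GC box, and 9 of the 26 windows of members did. AP-1 letters stood in 6.75% of all windows and in 1 member window, that of Itgax. The AGAACA letters stood in 16.1% of all windows and in 5 member windows, those of Itga2, Itgax, Itgb1, Itgb7 and Lama2. The AGGTCA letters stood in 14% and the TATAAA letters in 12.4% of all windows, and in no member window. A match or its absence describes these letters in this window and nothing about a factor.

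The laminin alpha chains, which carry the globular end that cells grip, differed in opposite directions. Lama5, the alpha chain of many epithelial and vascular basement membranes, was 14.1 FPKM in f/f against 46.3 in d/d, a 3.29-fold higher level. Lama3, the alpha chain of the laminin that anchors epithelia through hemidesmosomes, was 4.83 and 12.5 FPKM, 2.59-fold higher. Lama1, the chain of early embryonic and some epithelial basement membranes, was 0.721 and 4.14 FPKM, 5.74-fold higher from a low level. Lama4, the alpha chain of blood vessel and muscle basement membranes, was 51.0 FPKM in f/f against 20.1 in d/d, 2.54-fold lower and the single member called lower. Lama2, the main alpha chain around muscle fibres and Schwann cells, was 46.7 and 36.8 FPKM, a log2 ratio of -0.34 that did not reach the rule.

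Of the laminin beta chains, Lamb3 was called higher and none was lower, and the gamma chains Lamc1 and Lamc3 were not called. Lamb3, which occurs in the hemidesmosomal laminin, was 0.435 FPKM in f/f against 14.8 in d/d, 34.0-fold higher, and 114 of the 16263 genes, itself included, had a log2 ratio of at least its 3.46. The widely used chains Lamb1, Lamb2 and Lamc1 were each lower in value and short of the rule. Lamb1 was 69.7 FPKM in f/f against 58.0 in d/d, Lamb2 was 59.6 and 43.2, and Lamc1 was 92.1 and 51.4 with a log2 ratio of -0.83. Lamc3, a minor gamma chain, was 3.73 and 2.38 FPKM.

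The chains are known to work as trimers. Of the hemidesmosomal laminin, Lama3 and Lamb3 were called higher. Within f/f Lamb3 was the scarcer of this pair, at 0.435 FPKM against 4.83 for Lama3, and in d/d it stood above Lama3, at 14.8 against 12.5 FPKM. Of laminin-511 (Lama5, Lamb1 and Lamc1) the alpha chain alone was called. Of laminin-411 (Lama4, Lamb1 and Lamc1) all 3 chains had ratios below 0, at -1.30, -0.26 and -0.83. The same held for laminin-211 (Lama2, Lamb1 and Lamc1), at -0.34, -0.26 and -0.83. Laminin-511, laminin-411 and laminin-211 share Lamb1 and Lamc1, so only their alpha chains set them apart. Transcript levels do not show which trimers were assembled.

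Because FPKM is scaled to length, chains of a class can be set beside each other within a library. The summed level of the 5 alpha chains was nearly equal, 117.3 FPKM in f/f against 119.7 in d/d, but its makeup was not. Lama4 was 43.5% of that sum in f/f and 16.8% in d/d, whereas Lama5 was 12.0% in f/f against 38.6% in d/d. Lama2 went from 39.8% to 30.7% and Lama3 from 4.12% to 10.4%. Lamb3 was 0.335% of the beta chain sum in f/f and 12.8% in d/d. In f/f the order of the alpha chains was Lama4, Lama2, Lama5, Lama3, Lama1, and in d/d it was Lama5, Lama2, Lama4, Lama3, Lama1. With 1 library each, no spread tells which neighbours in these orders differ.

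**Figure D2:**
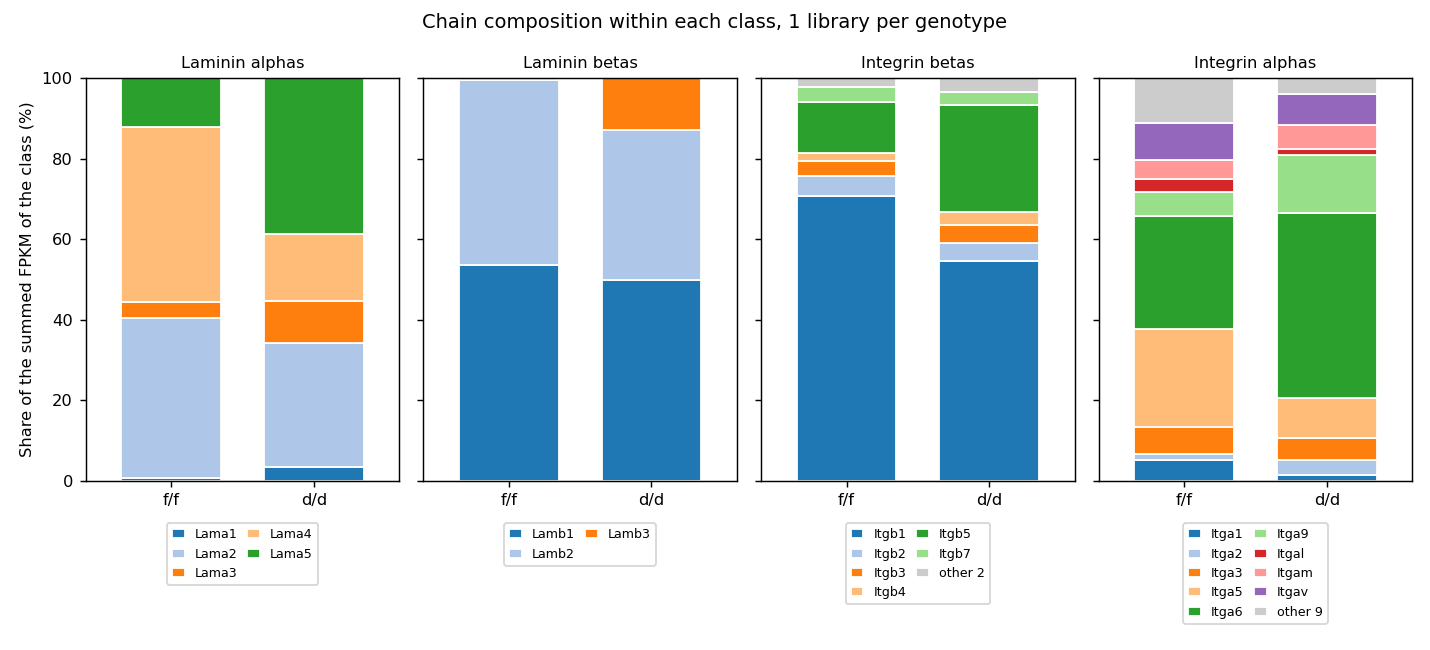
Share of each chain or subunit in the summed FPKM of its class (percent, stacked to 100) in the f/f and d/d libraries, for laminin alpha and beta chains and integrin beta and alpha subunits; subunits under 3% in both libraries are pooled in grey. Lama5 and Lamb3 take larger shares in d/d, 38.6% and 12.8%, and Itga6 makes up 46.0% of the integrin alpha sum there.

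Among the laminin-binding integrins, Itga6 was the member with the largest difference in FPKM. Itga6, which joins Itgb4 in hemidesmosomes and Itgb1 elsewhere, was 62.4 FPKM in f/f against 213 in d/d, 3.42-fold higher. Itgb4, the hemidesmosome beta subunit that links laminin to keratin filaments, was 7.75 and 13.7 FPKM, with a log2 ratio of 0.75 that fell short of the rule. Itga3, an epithelial receptor for laminins, was 15.1 and 24.8 FPKM, also short of it with 0.68. Itga7, the muscle laminin receptor, was 6.12 FPKM in f/f against 3.53 in d/d, with a log2 ratio of -0.65. The summed FPKM of these alpha subunits was 83.7 in f/f against 242 in d/d, and Itga6 accounts for most of both sums.

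Collagen-binding alpha subunits, all of which pair with Itgb1, differed from each other. Itga2, the collagen receptor of epithelia and platelets, was 3.46 FPKM in f/f against 18.3 in d/d, 5.29-fold higher. Itga1, the collagen receptor prominent in smooth muscle and other mesenchymal cells, was 11.3 and 6.11 FPKM, with a log2 ratio of -0.79. Thus Itga1 stood above Itga2 in f/f and below it in d/d. Itga11, a fibroblast collagen receptor, was 0.624 and 1.10 FPKM, and Itga10, known from cartilage, stayed under 1 FPKM in both libraries.

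Of the RGD-binding integrins, which grip fibronectin, vitronectin and the latent form of TGF-beta, the beta subunits Itgb5 and Itgb6 were called higher and none of the alpha subunits Itga2b, Itga5, Itga8 and Itgav was called. Itgb6, an epithelial subunit that pairs with Itgav and activates latent TGF-beta, was 0.133 FPKM in f/f against 7.81 in d/d. That is 59.0-fold, with about 11.8 fragments behind the f/f value and 811 behind the d/d value at the estimated depth, so the size of the fold is loosely set. Itgb5, the vitronectin-binding partner of Itgav, was 44.2 and 121 FPKM, 2.73-fold higher. Itgav itself, which all of these beta subunits share, was 20.7 and 36.1 FPKM, with a log2 ratio of 0.77. Itgb3, which pairs with Itgav and, in platelets, with Itga2b, was 12.7 and 20.8 FPKM, with a log2 ratio of 0.67. Itgb8, another partner of Itgav that activates latent TGF-beta, was 7.58 and 7.34 FPKM, nearly equal. The fibronectin receptor subunit Itga5 was 54.8 and 46.4 FPKM, and Itga2b was 3.83 and 4.10. Itga8, a mesenchymal nephronectin receptor, was 4.04 FPKM in f/f against 2.01 in d/d, with a log2 ratio of -0.74 on FPKM + 1. By FPKM alone Itga8 was 2.003-fold lower, at the edge of the rule.

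Itga9 and Itga4 belong to one small subfamily and differed from each other. Itga9, which pairs with Itgb1 and binds tenascin-C and osteopontin, was 13.9 FPKM in f/f against 66.8 in d/d, 4.81-fold higher. Itga4, the leukocyte receptor for Vcam1 and fibronectin, was 2.93 and 2.73 FPKM. Itgb1, the common beta subunit of most of the alpha subunits above, was 250.3 FPKM in f/f against 248.0 in d/d, with a log2 ratio of -0.01, and was the most abundant member in both libraries. Its share of the beta subunit sum was 70.7% in f/f against 54.7% in d/d, while that of Itgb5 was 12.5% and 26.6%. The alpha subunits summed to 224 FPKM in f/f against 464 in d/d, 2.07-fold higher, and the beta subunits to 354 and 453.

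**Figure D3:**
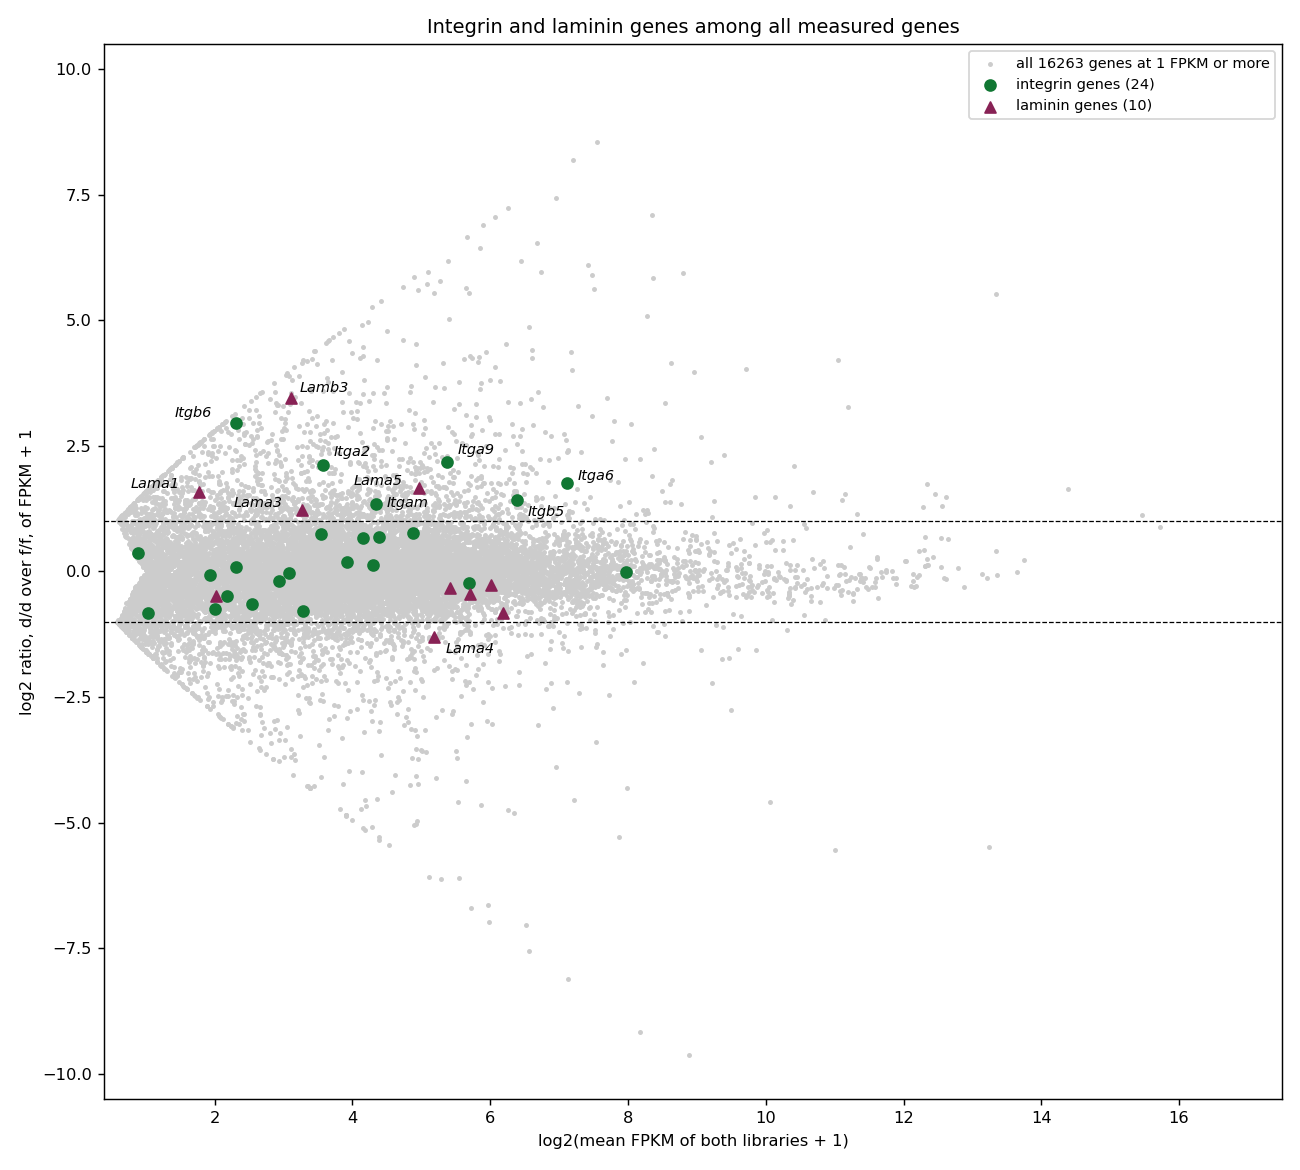
Log2 of d/d over f/f on FPKM + 1 against the log2 of the mean FPKM + 1, for the 16263 genes at 1 FPKM or more (grey), with 24 integrins (green circles) and 10 laminins (purple triangles) and dashed lines at 2-fold. The 11 named members lie beyond the lines, from Lama4 at -1.30 to Lamb3 at 3.46, and the other 23 lie between them.

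Of the leukocyte alpha subunits that passed the filter, Itgam was called higher and none was lower. Itgam, the alpha subunit of the complement receptor of macrophages and neutrophils, was 10.4 FPKM in f/f against 28.1 in d/d, 2.69-fold higher. Its beta partner Itgb2, shared by all leukocyte integrins of that kind, was 17.8 and 19.7 FPKM. Itgal, the lymphocyte partner of Itgb2, was 7.17 and 6.15 FPKM, and Itgax, known from dendritic cells, was 4.31 and 2.76. Itgae, which pairs with Itgb7 on intraepithelial lymphocytes and grips E-cadherin, was 1.62 FPKM in f/f against 0.475 in d/d. The log2 ratio of Itgae was -0.83 with a pseudocount of 1 and passed the rule at -1.12 with a pseudocount of 0.5. Itgb7 was 13.3 and 15.2 FPKM.

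Markers of several cell types also differed between the libraries. Of all genes that passed the filter, 10.2% were higher and 8.28% were lower. In whole tissue, fewer cells of a type and less RNA per cell cannot be told apart. Of 14 general epithelial genes, 11 were higher and none was lower, with a median log2 ratio of 2.47, and their summed FPKM was 512 in f/f against 2674 in d/d, 5.22-fold higher. Their single log2 ratios ran from 0.64 for Spint1 to 5.89 for Krt19, and E-cadherin, Cdh1, was 20.8 FPKM in f/f against 154 in d/d. None of these markers was listed at 0. Of 12 endothelial genes, none was higher and 4 were lower (median -0.93), with a sum of 593 FPKM in f/f against 304 in d/d. Of 11 smooth muscle genes, 4 were lower and 7 were neither (median -0.81, sum 5342 and 3521 FPKM). Of 12 endometrial stroma genes, 6 were lower and 6 were neither (median -1.19, sum 6522 and 4038 FPKM). Single log2 ratios of the stroma genes ran from -2.73 to -0.13, and their median falls in a gap between the lower genes and the others. None of the endothelial, muscle and stroma genes was listed at 0. The part of such cell types in the differences of the members was not tested.

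For the leukocyte members, 4 of 10 macrophage and monocyte genes that passed the filter were higher (40% against 10.2% of all genes) and none was lower. The sum of the list was 902 FPKM in f/f against 1968 in d/d. Single log2 ratios of those that passed ran from -0.03 for Mrc1 to 2.74 for Cd14, with a median of 0.85. The ratios of the members Itgam, Itgb2 and Itgax were 1.35, 0.14 and -0.50. Of 6 neutrophil genes that passed, 2 were higher, with Ly6g at 9.52 FPKM in d/d but listed at 0 in f/f, and Elane listed at 0 in both, and the summed level of all 8 was 117 and 182 FPKM. Of 11 T and NK cell genes that passed, the 7 lower ones were Nkg7, Ncr1, Prf1, Gzmb, Gzmc, Klrb1c and Eomes, known from NK and other cytotoxic cells, with Gzmc listed at 0 in d/d. The 3 higher ones were the T cell genes Cd3e, at 1.39 FPKM in f/f against 11.6 in d/d, Cd3g, at 5.22 and 33.7, and Cd4, at 0.657 and 3.41. Cd3d was 2.70 and 5.37 FPKM, short of the rule, and Cd8a was under 1 FPKM in both libraries. Of 9 platelet genes only Pf4 passed the filter, at 48.0 and 71.8 FPKM, and Gp6 was listed at 0 in both libraries. Of 7 Schwann cell and nerve genes 3 passed, and Ngfr was 30.2 and 129 FPKM and Mbp 2.81 and 9.40. Of 8 gland genes, 5 were lower, with Prss28 and Spink1 listed at 0 in d/d, and 3 were neither, with 1 of the 8 above 0 in log2 ratio. The sum was 2286 FPKM in f/f against 26.6 in d/d, and the lower genes made up most of the f/f sum. The part of these cells in the values of Itgam, Itgae and the other members was not tested.

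Genes of proteins that work beside laminins and their receptors included 3 called higher. Of 12 genes of hemidesmosomes and laminin-binding partners, 11 passed the filter, 3 were higher (27.3% against 10.2% of all genes) and none was lower, with a median log2 ratio of 0.45 over those that passed. The higher ones were Dag1, which encodes the laminin receptor dystroglycan, at 42.2 FPKM in f/f against 113 in d/d, Sdc1, an epithelial heparan sulfate proteoglycan, at 63.1 and 181, and Cd82, a tetraspanin, at 27.2 and 59.7. The tetraspanin Cd151, which binds Itga3 and Itga6, was 110 and 130 FPKM. The hemidesmosome plakins Plec and Dst were 21.7 and 30.1 FPKM, and 36.7 and 41.3. Bcam, a receptor for the Lama5 chain, was 51.6 and 96.4 FPKM, with a log2 ratio of 0.89. The gene of the list below the filter was Col17a1, at 0.349 FPKM in f/f against 0.194 in d/d. Thus Lama3, Lamb3 and the hemidesmosome alpha subunit Itga6 passed the rule while Itgb4, Plec and Dst did not.

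The cytoplasmic machinery that joins integrins to actin was read from a list of adaptors and kinases. Of 28 genes, 2 were higher (7.14%, against 10.2% of all genes that passed), none was lower (against 8.28%) and 26 were neither. Their median log2 ratio was -0.12. The higher genes were Fermt1, which encodes the epithelial kindlin that activates integrins, at 2.04 FPKM in f/f against 19.1 in d/d, and Bcar1, a docking protein of focal adhesions, at 17.7 and 37.3. Fermt2, the kindlin of mesenchymal cells, was 135 and 94.4 FPKM, and Fermt3, the kindlin of blood cells, was 9.15 and 9.70. With the libraries set to the same upper quartile 1 of the 28 was higher in place of 2.

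Other basement membrane components included more genes called lower than higher. Of 21 genes, 20 passed the filter, 3 were higher (15% against 10.2% of all genes) and 7 were lower (35% against 8.28%), with a median log2 ratio of -0.45 over those that passed. Within type IV collagen, the network that lies beside the laminin sheet, Col4a3 was 0.936 FPKM in f/f against 5.45 in d/d and Col4a4 was 0.636 and 5.14. Col4a5 was 32.8 and 14.0 FPKM and Col4a6 was 13.3 and 3.41, both lower. The main chains Col4a1 and Col4a2 were 303 and 238 FPKM, and 139 and 105, neither called. Agrn, a heparan sulfate proteoglycan that binds laminins, was the remaining higher gene at 26.6 and 69.6 FPKM. Lower beside Col4a5 and Col4a6 were Col15a1 at 137 and 33.1 FPKM, Col18a1 at 106 and 33.2, Ntn4, a laminin-related netrin, at 6.45 and 2.35, Col7a1, the anchoring fibril collagen, at 9.17 and 3.88, and Frem1 at 2.21 and 0.604. Col4a3 and Col4a4 were under 1 FPKM in f/f, and with 1 FPKM required in both libraries 1 gene of the list was higher.

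Ligands of integrins other than laminins and collagens included genes called in each direction. Of 24 genes, 20 passed the filter, 3 were higher (15% against 10.2% of all genes) and 4 were lower (20% against 8.28%), a gap of few genes, with a median log2 ratio of -0.24 over those that passed. Higher were Cdh1, the ligand of Itgae, with the values above, Spp1, which encodes osteopontin, a ligand of Itga9 and Itgav, at 44.0 FPKM in f/f against 106 in d/d, and Fbn1, a fibrillin, at 36.8 and 78.8. Lower were Postn, which encodes periostin, at 207 and 30.5 FPKM, Ccn2, a matricellular growth factor, at 42.9 and 6.48, Icam1, the ligand of Itgal and Itgam, at 24.1 and 8.81, and Vtn, vitronectin, at 4.99 and 1.94. Tnc, which encodes the Itga9 ligand tenascin-C, was 8.22 and 12.4 FPKM, and fibronectin, Fn1, the ligand of Itga5, was 175 and 116, neither called.

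**Figure D4:**
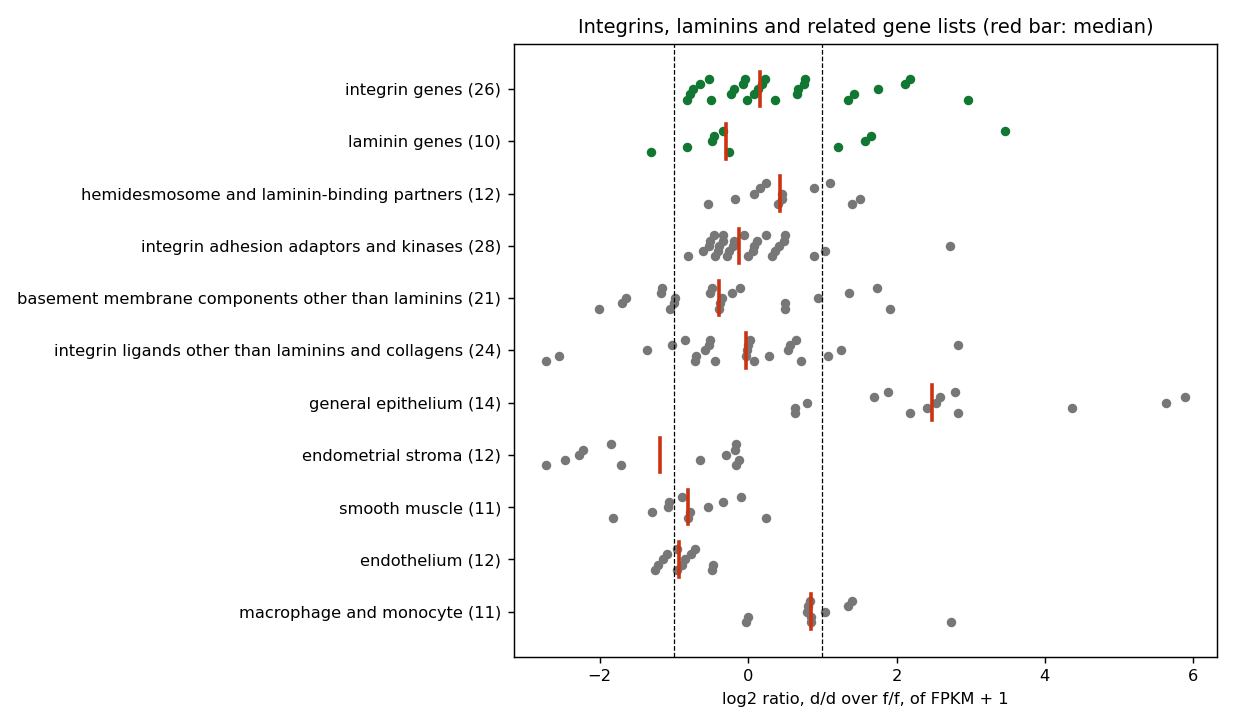
Log2 of d/d over f/f on FPKM + 1 for the listed genes, 10 laminins among them (points; number of genes in brackets) with the median of the points shown as a red bar and dashed lines at 2-fold. Laminin genes split into a group near or below 0 and a group of 4 beyond the upper line; epithelial markers have a median of 2.47 and endothelial markers one of -0.93.

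The letters GGACT, a short consensus of N6-methyladenosine sites, were counted in the members' transcripts. In the longest GENCODE transcript of a gene, the median was 1.19 per kilobase over the 35 members that passed the filter and 1.04 over 13743 protein-coding genes that passed. It was 1.04 over the 11 higher members and 1.21 over the 23 that were neither. Among the members the count ran from 0.511 per kilobase in Lamc3 to 2.69 in Itgb2. A letter match does not show that a site is methylated.

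The 12 called members lie on several chromosomes. Lamb3 is on chromosome 1, and Itga6, Itgb6 and Lama5 are on chromosome 2. On GRCm38, Itga6 spans chromosome 2 from 71745616 to 71858416 and Itgb6 from 60598292 to 60722643. Itgb5, Itgb6 and Lamb3 each have 2 annotated transcripts under 300 nt, whose FPKM is less certain and adds to the gene value. Exons of Lama3, Lama2, Lamc3, Itgb4, Itga4, Itga7, Itga8, Itgav and Itgad overlap those of a gene on the other strand, and reads of such a pair cannot be told apart without strand information. Itga1, Itga10, Itgam and Itgad also share exon bases with a gene model on their own strand.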

How the data were processed

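RNA sequencing of whole uterus gave 1 library per genotype. The deposited values are FPKM per gene, as the authors made them. HISAT2 2.2.1, Cufflinks 2.2.1 and the build mm10 are named by the submitters' processing notes, and the labels' protocols name TRIzol and the TruSeq RNA kit. The sources used here do not state the annotation release, the strandedness or any pooling of animals. Gene FPKM depends on estimated effective lengths and on how fragments of overlapping transcripts are divided.

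Rows sharing a symbol (120 beyond the first) were summed. Ratios used a pseudocount of 1 FPKM, a filter of 1 FPKM in at least one library and a 2-fold rule. With 1 library per genotype no test was run. The members were described except 1, which is counted but not reported here, as is 1 marker gene, and from each list the text names up to 6 called genes by size and otherwise abundant ones; others were named after their values were seen. The members and lists were chosen with earlier results of these data known. The list symbols Ctgf and Cyr61 were matched as Ccn2 and Ccn1 through RefSeq synonyms. Positions and transcripts came from GENCODE M21 (GRCm38), which held 55137 of 55483 gene IDs and all 37 members.

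Depth was estimated from steps of low values of single-transcript genes of at least 1500 nt, with 300 nt subtracted from each length. With these settings 84.9% of 1225 f/f values and 83.9% of 1233 d/d values lay within 0.1 of a whole fragment. The depth and the subtracted length were the pair that gave the largest such share, so the share is no separate check. Fragment numbers are approximate and entered no comparison. Tools were Python 3.11.15, pandas 2.3.3, numpy 2.4.6 and matplotlib 3.10.9. Alternatives were pseudocounts of 0.1 and 0.5, no filter, 5 FPKM, 1 FPKM in both libraries, a 1.5-fold rule and 3 rescalings.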

Additional observations from a re-analysis of the deposited data

How the results depend on the processing

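All 12 calls among the integrins and laminins held their direction and their side of the 2-fold rule with pseudocounts of 0.1 and 0.5, without a filter and under the 3 rescalings (the same FPKM sum, the same upper quartile, median log2 ratio set to 0). A filter of 5 FPKM removed Lama1 and left 10 higher, and 1 FPKM in both libraries, chosen after seeing the data, left 8. The count of lower members was 1, but 2 with a pseudocount of 0.1 or 0.5, where Itgae joined Lama4, and 6 with the 1.5-fold rule, where 15 were higher. The median log2 ratio of the integrins moved from 0.16 to 0.67 with a filter of 5 FPKM, which tests fewer genes. In the other lists the 1.5-fold rule gave 2 lower of 28 adaptors and kinases in place of none. It gave 5 higher and 7 lower of the 20 ligands that passed the filter. By that rule 18.8% of all genes that passed were higher and 17.8% lower, shares to set beside these counts and those of the 35 members. The same upper quartile left 1 higher adaptor, and 1 FPKM in both libraries left 1 higher basement membrane gene. No paired analysis was possible because each genotype has 1 library, and for the same reason no replicate could be left out. Depth limits Itgb6 and Lamb3 in f/f, with about 11.8 and 39.2 fragments.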
